A study of Homo sapiens with 18 samples.

Results

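RNF43, ZNRF3, AXIN1, AXIN2, NKD1, NKD2, DKK1, LEF1, TCF7 and LGR4 are 10 of the 26702 genes in the deposited tables and were taken by gene name as feedback and effector genes of the Wnt pathway. The set was chosen by what RNF43 did in these same data: its RNA fell after Nutlin-3a in siControl cells, and that fall was lost after siANKRA2. Those values of RNF43 are therefore given as a description, with no test. All 10 genes are listed in all 6 tables.

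The data are RNA-seq of polyadenylated RNA from U2OS, a human osteosarcoma cell line with functional p53. An siRNA was first given, siControl, siANKRA2 or siRFXANK, and cells were then kept for 24 h in 10 µM Nutlin-3a, which blocks the binding of MDM2 to p53, or in the solvent DMSO. Each of the 6 groups had 3 samples, 18 in all, and nothing in the labels says whether those were separate cultures, so p-values measure the spread between samples only. ANKRA2 and RFXANK are related ankyrin repeat proteins that bind transcription factors of the RFX family. The siRFXANK samples were labelled in another form, with bone as their tissue, epithelial cells as their cell type and a wild-type genotype. They have no siControl samples labelled in that form. A batch and the effect of siRFXANK therefore cannot be told apart in any siRFXANK comparison.

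Wnt ligands bind Frizzled receptors with the co-receptors LRP5 or LRP6 and stop the destruction complex from marking beta-catenin for degradation. Beta-catenin then enters the nucleus and switches on target genes with the TCF/LEF factors. Several targets act back on the pathway. RNF43 and ZNRF3 are membrane ubiquitin ligases that clear Frizzled receptors from the cell surface, and R-spondins bound to LGR4, LGR5 or LGR6 draw these ligases away. AXIN1 and AXIN2 are scaffolds of the destruction complex, of which AXIN2 is a common target of beta-catenin. NKD1 and NKD2 bind Dishevelled, DKK1 is a secreted antagonist of LRP5 and LRP6, and LEF1 and TCF7 are the nuclear partners of beta-catenin.

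Since RNF43 gave the set its rule, and since ANKRA2 and RFXANK act with RFX factors, the bases upstream of its RefSeq transcript starts were searched on both strands. The RFX core was spelled GTTGCC, with GTTGCT and with GTTACC as variants. TCF/LEF letters were CTTTGAA and, as the variant, CTTTGAT. The RefSeq upstream sequences at hand covered 7 of the 10 genes, in 9 windows of 250 bases. ZNRF3, AXIN2 and NKD1 were not among them and were not searched. RNF43 had 1 RFX core before each of its 2 starts, shown in capitals in the printed sequences, at 115 and 168 bases before the start, and the other 7 windows had none. Of the 7 genes searched, DKK1 alone had TCF/LEF letters, 95 bases before its start. Of all 35116 RefSeq windows, 23.3% held an RFX core and 5.94% held TCF/LEF letters, so the RFX core is common. The first sequence ends before the first base annotated as exon and covers chr17:58417596-58417784, and the second covers chr17:58402722-58402971, both on the minus strand of GRCh38.p14.

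RNF43 first start: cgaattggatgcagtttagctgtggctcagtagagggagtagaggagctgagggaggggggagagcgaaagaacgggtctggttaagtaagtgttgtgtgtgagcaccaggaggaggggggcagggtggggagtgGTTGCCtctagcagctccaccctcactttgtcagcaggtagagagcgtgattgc

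RNF43 second start: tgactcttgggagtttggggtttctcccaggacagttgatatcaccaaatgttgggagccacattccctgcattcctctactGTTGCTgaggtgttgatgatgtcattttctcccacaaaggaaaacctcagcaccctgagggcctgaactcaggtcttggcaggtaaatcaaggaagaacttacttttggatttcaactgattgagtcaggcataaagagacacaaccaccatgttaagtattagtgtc

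The siRNA labels were checked first. ANKRA2 fell by 1.81 ± 0.18 (SE) on the log2 scale after siANKRA2 in DMSO and by 2.58 ± 0.12 in Nutlin-3a. RFXANK fell by 2.96 ± 0.10 and 3.16 ± 0.10 after siRFXANK. The direction of the siRFXANK comparisons was read from this gene, so the sign of its change is no check of the label. RFXANK was also lower in siANKRA2 than in siControl cells, at 636 against 824 normalized counts in DMSO and 701 against 950 in Nutlin-3a. ANKRA2 was higher in siRFXANK than in siControl cells, at 161 against 97.1 in DMSO and 516 against 376 in Nutlin-3a. In siANKRA2 cells ANKRA2 was at 27.7 in DMSO and 63 in Nutlin-3a. Of the targets of p53, MDM2 and CDKN1A were looked at, and their rise in Nutlin-3a was smaller after siANKRA2. MDM2 rose by 3.38 ± 0.05 in siControl cells and by 2.19 ± 0.05 in siANKRA2 cells, and CDKN1A, the cell cycle inhibitor p21, by 3.27 ± 0.04 and 1.42 ± 0.04. MDM2 ended lower in siANKRA2 than in siControl cells, at 13965 against 34330 normalized counts, from 3056 against 3294 in DMSO. CDKN1A started higher, at 23233 against 5633, and also ended higher, at 62129 against 54185. In siRFXANK cells MDM2 went from 4605 in DMSO to 38089 in Nutlin-3a. CDKN1A went from 5411 to 29485 there, a smaller rise than in siControl cells. Of 7 mesenchymal and bone markers, 5 had a deposited mean of at least 100 normalized counts, with COL1A1 at 64042, VIM at 55026 and BGLAP at 2.08. Of 6 epithelial markers, 4 did, with KRT8 at 21456, CDH1 at 32.9 and KRT19 at 1.67. Of 3 blood markers, only PTPRC was listed, at 3.81. In bulk RNA, fewer cells of a type and less RNA per cell cannot be told apart.

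The tables hold log2 changes with standard errors but no value per sample, so the level of each gene was recovered as the mean of each group, in normalized counts, with a 95% interval. The interval covers the fitted spread within a gene. The level of a gene as a whole is less sure, since the deposited mean was 0.715 to 1.31 times the recovered one for the middle 90% of 504 genes checked. For ANKRA2 it was 31568 against a recovered 207, so that the deposited mean cannot be a mean over these 18 samples alone for that gene. Each gene has the same deposited mean in every comparison, so the means of other genes may hold further samples too. The standard errors come from the same deposited fit. The marker levels and the minimum mean of 100 rest on the deposited mean. Changes between groups do not carry that error.

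RNF43 was highest in siControl cells in DMSO, at 1352 normalized counts (95% interval 1208 to 1513, n = 3), and lower in each of the other 5 groups. Nutlin-3a took it to 211 (185 to 241) in siControl cells. In siANKRA2 cells it was 406 (359 to 458) in DMSO and 362 (320 to 409) in Nutlin-3a, 2 levels whose intervals overlapped. In siRFXANK cells it was 416 (369 to 470) in DMSO and 58.3 (48.5 to 70.0) in Nutlin-3a, the lowest of all groups. Highest and lowest group differed 23.3-fold.

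As a change, RNF43 was lower in Nutlin-3a by -2.68 ± 0.13 (log2, SE) in siControl cells, a 6.40-fold difference, and by -0.17 ± 0.13 in siANKRA2 cells. The difference between both responses was 2.51 ± 0.18 (95% interval 2.16 to 2.87). In DMSO, without Nutlin-3a, siANKRA2 cells held less RNF43 than siControl cells, with a log2 change of -1.74 ± 0.12. In Nutlin-3a the order was turned, at 0.78 ± 0.13. The lost fall thus started from a lower level, and the end level lay above that of siControl cells in Nutlin-3a. The smaller rises of MDM2 and CDKN1A, of which CDKN1A also started from another level, moved with it, and their part in the result was not tested. In siRFXANK cells CDKN1A also rose less than in siControl cells, and the RNF43 response there was derived as -2.84 ± 0.16.

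The siRFXANK comparisons of RNF43 share the siControl samples that the rule used, so they too are given with no test. The log2 change after siRFXANK was -1.70 ± 0.12 in DMSO and -1.86 ± 0.17 in Nutlin-3a. Its response to Nutlin-3a, derived as -2.84 ± 0.16, differed from that of siControl cells by -0.16 ± 0.21 (95% interval -0.56 to 0.25). In DMSO both knockdowns gave a similar level, with siANKRA2 over siRFXANK at -0.04 ± 0.13 (95% interval -0.28 to 0.21). Their responses to Nutlin-3a differed by 2.67 ± 0.21 (95% interval 2.27 to 3.07), a value that holds the siANKRA2 response used by the rule.

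**Figure D1:**
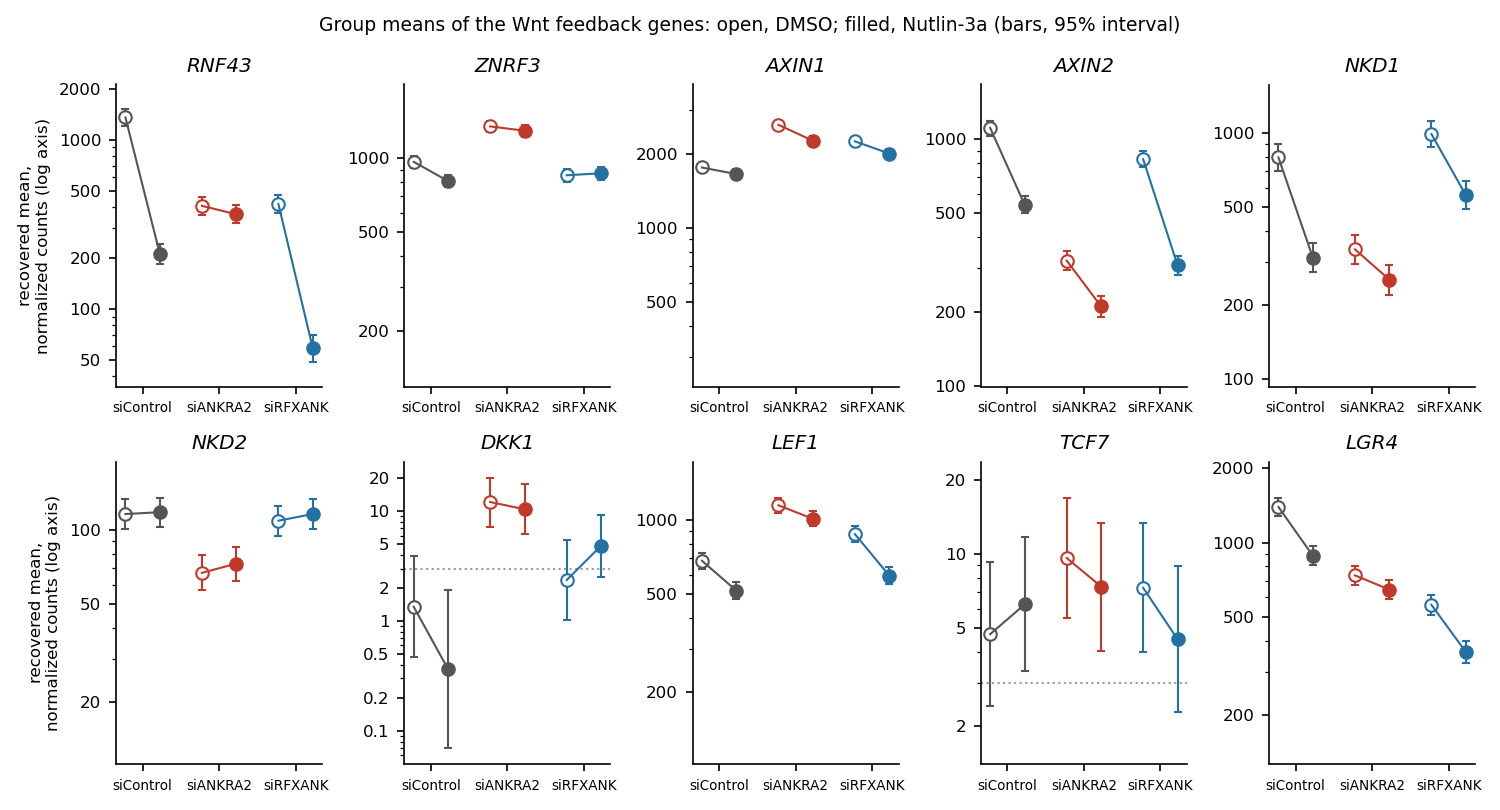
Recovered mean of each gene in each group, in normalized counts on a log axis, for siControl (grey), siANKRA2 (red) and siRFXANK (blue) cells. Open points are DMSO, filled points Nutlin-3a, bars the 95% interval and the dotted line 3 normalized counts. RNF43 falls from 1352 to 211 in siControl cells, stays near 400 in siANKRA2 cells and reaches 58.3 in siRFXANK cells in Nutlin-3a.

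RNF43 lies at chr17:58352500-58417595 on the minus strand of GRCh38, in the GENCODE 29 annotation. Of its merged exon bases, 57.6% are also annotated to AC004687.2 on the same strand, a gene that is not among those in the tables, and 1.91% to SUPT4H1. TSPOAP1-AS1, on the opposite strand, covers 20.3%. SUPT4H1, an elongation factor subunit with a deposited mean of 4186, had log2 changes of -0.04 ± 0.05 and 0.04 ± 0.05 after Nutlin-3a in siControl and siANKRA2 cells but rose after siANKRA2 by 0.56 ± 0.05 in DMSO and 0.64 ± 0.05 in Nutlin-3a, and TSPOAP1-AS1 had a mean of only 7.91. How reads in shared exons were counted is not given in the sources used here, so the level of RNF43 is uncertain to that extent. For AXIN2, 25.2% of exon bases are shared with AC004805.1 on the same strand.

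ZNRF3, the closest relative of RNF43, stood at 967 normalized counts in siControl cells in DMSO and at 808 in Nutlin-3a, at 1346 and 1293 in siANKRA2 cells, and at 853 and 869 in siRFXANK cells. It rose after siANKRA2 in DMSO (0.48 ± 0.06, adjusted p = 3.4e-15) and in Nutlin-3a (0.68 ± 0.06, adjusted p = 2.8e-28), where RNF43 had -1.74 and 0.78. After siRFXANK it fell in DMSO by 0.18 ± 0.06 (adjusted p = 0.0087) and had 0.11 ± 0.06 in Nutlin-3a (adjusted p = 0.19). Its Nutlin-3a response was -0.26 ± 0.06 in siControl, -0.06 ± 0.06 in siANKRA2 and, derived, 0.03 ± 0.06 in siRFXANK cells. The siANKRA2 and siControl responses, which the rule used, differed by 0.20 ± 0.08. Over all groups ZNRF3 spanned 1.66-fold.

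LGR4, a receptor for R-spondins, was lowered by each knockdown. Its mean was 1394 in siControl cells in DMSO and 884 in Nutlin-3a. It was 736 and 645 in siANKRA2 cells and 559 and 360 in siRFXANK cells. Like RNF43, it was highest in siControl cells in DMSO and lowest in siRFXANK cells in Nutlin-3a. It fell after siANKRA2 in DMSO by 0.92 ± 0.09 (adjusted p = 1.1e-22) and in Nutlin-3a by 0.46 ± 0.09 (adjusted p = 4.4e-06). After siRFXANK it fell by 1.32 ± 0.09 in DMSO (adjusted p = 1.1e-43) and 1.30 ± 0.10 in Nutlin-3a (adjusted p = 3.9e-38). The Nutlin-3a response was -0.66 ± 0.09 in siControl, -0.19 ± 0.10 in siANKRA2 and, derived, -0.64 ± 0.10 in siRFXANK cells.

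AXIN2, the destruction complex scaffold, was also highest in siControl cells in DMSO, at 1111 normalized counts, and stood at 543 there in Nutlin-3a. In siANKRA2 cells it was 322 and 210, the lowest of its groups, and in siRFXANK cells 830 and 308. It fell after siANKRA2 by 1.79 ± 0.08 in DMSO (adjusted p = 4.2e-101) and 1.37 ± 0.09 in Nutlin-3a (adjusted p = 9.7e-48). After siRFXANK it fell by 0.42 ± 0.07 in DMSO (adjusted p = 8.6e-08) and 0.82 ± 0.09 in Nutlin-3a (adjusted p = 5.5e-20). Its response to Nutlin-3a was larger in siRFXANK than in siControl cells, -1.43 ± 0.08 as derived against -1.03 ± 0.08, with a difference of -0.40 ± 0.11 (adjusted p = 0.0040). In siANKRA2 cells the response was -0.61 ± 0.10.

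AXIN1 rose after each knockdown, where AXIN2 fell. Its means were 1757 and 1652 in siControl cells in DMSO and Nutlin-3a, 2617 and 2256 in siANKRA2 cells and 2243 and 2002 in siRFXANK cells. It rose after siANKRA2 by 0.57 ± 0.04 in DMSO (adjusted p = 2.5e-39) and 0.45 ± 0.04 in Nutlin-3a (adjusted p = 1.9e-23), and after siRFXANK by 0.35 ± 0.04 (adjusted p = 5.6e-15) and 0.28 ± 0.04 (adjusted p = 3.4e-09). Its Nutlin-3a response was -0.09 ± 0.04 in siControl, -0.21 ± 0.04 in siANKRA2 and, derived, -0.16 ± 0.04 in siRFXANK cells, on the same side of 0 as that of AXIN2. Its range over the 6 groups was 1.58-fold, the smallest of the 10 genes.

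NKD1, which binds Dishevelled, had lower means in siANKRA2 cells and higher means in siRFXANK cells than in siControl cells. Its mean was 795 in siControl cells in DMSO and 312 in Nutlin-3a, 337 and 254 in siANKRA2 cells, and 989 and 559 in siRFXANK cells. It fell after siANKRA2 in DMSO by 1.24 ± 0.14 (adjusted p = 9.3e-19) and had -0.30 ± 0.14 in Nutlin-3a (adjusted p = 0.074). After siRFXANK it rose by 0.32 ± 0.13 in DMSO (adjusted p = 0.040) and 0.84 ± 0.14 in Nutlin-3a (adjusted p = 7.6e-09). Its Nutlin-3a response was -1.35 ± 0.14 in siControl and -0.41 ± 0.14 in siANKRA2 cells. In siRFXANK cells it was derived as -0.82 ± 0.13, which differed from siControl cells by 0.53 ± 0.19 (adjusted p = 0.030).

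NKD2, its relative, passed the threshold after siANKRA2 and not after siRFXANK. Its means ran from 67.0 in siANKRA2 cells in DMSO to 118 in siControl cells in Nutlin-3a. It fell after siANKRA2 by 0.79 ± 0.16 in DMSO (adjusted p = 1.6e-06) and 0.69 ± 0.15 in Nutlin-3a (adjusted p = 2.4e-05). After siRFXANK it had -0.09 ± 0.14 and -0.03 ± 0.14 (adjusted p = 0.68 and 0.91). As a derived value, siANKRA2 over siRFXANK was -0.70 ± 0.16 in DMSO (95% interval -1.01 to -0.39). In Nutlin-3a it was -0.66 ± 0.15 (-0.97 to -0.36). A batch and the siRNA cannot be told apart in these 2 values.

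LEF1, a nuclear partner of beta-catenin, had means of 683 and 517 in siControl cells, 1147 and 1011 in siANKRA2 cells and 876 and 594 in siRFXANK cells, in DMSO and Nutlin-3a. It rose after siANKRA2 by 0.75 ± 0.08 (adjusted p = 3.1e-22) and 0.97 ± 0.08 (adjusted p = 5.0e-34). After siRFXANK it rose by 0.36 ± 0.08 (adjusted p = 1.1e-05) and 0.20 ± 0.08 (adjusted p = 0.036). Its response to Nutlin-3a was -0.40 ± 0.08 in siControl, -0.18 ± 0.07 in siANKRA2 and -0.56 ± 0.08 in siRFXANK cells.

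DKK1 and TCF7 were near the limit of detection, with deposited means of 5.81 and 4.21. DKK1 was at 1.35 and 0.364 normalized counts in siControl cells, under the floor of 3 normalized counts that was set for a group mean. It reached 12.1 (95% interval 7.21 to 20.1) in siANKRA2 cells in DMSO and 10.4 (6.13 to 17.7) in Nutlin-3a. These means are 4.03 and 3.47 times that floor. The change from siControl cells passed the threshold in both (adjusted p = 0.00069 and 0.00041), but its size is unsure. In siRFXANK cells it was 2.36 and 4.84, and the change passed the threshold in Nutlin-3a only (adjusted p = 0.57 in DMSO and 0.013 in Nutlin-3a). TCF7 lay between 4.51 and 9.63 in the 6 groups, and a change was not detectable at this depth in any comparison.

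**Figure D2:**
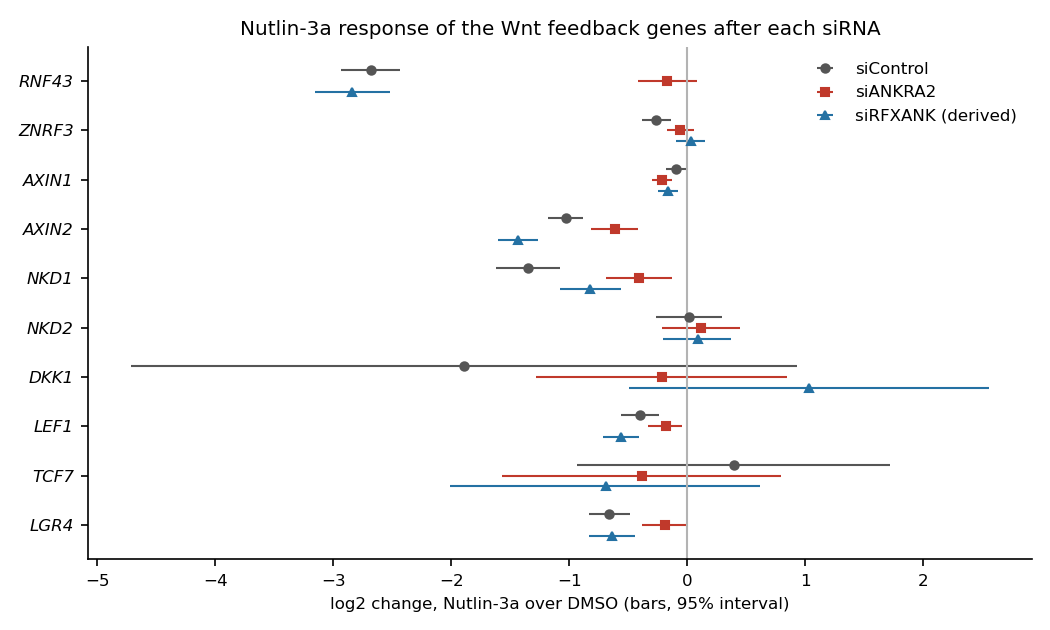
Log2 change of each gene in Nutlin-3a over DMSO, with its 95% interval, after siControl (circles), siANKRA2 (squares) and siRFXANK (triangles, derived from 3 tables). The RNF43 point lies at -2.68 in siControl, -0.17 in siANKRA2 and -2.84 in siRFXANK cells, while AXIN2 stays below 0 after every siRNA.

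Counted over the 10 genes, 6 were lower and 0 higher in Nutlin-3a in siControl cells at an adjusted p under 0.05, by the deposited DESeq2 fit, and 7 lower and 0 higher at an unadjusted p under 0.05. Of 25909 genes tested, 21.2% were lower and 21.9% higher. In siANKRA2 cells 4 were lower and 0 higher (5 and 0 unadjusted), against 17.0% and 15.5% of 22738 genes. The Nutlin-3a response was called higher in siANKRA2 than in siControl cells for 4, namely RNF43 (2.51), NKD1 (0.94 ± 0.20), LGR4 (0.47 ± 0.13) and AXIN2 (0.42 ± 0.12), and lower for 0 (6 and 1 unadjusted), against 11.4% higher and 12.5% lower of 22738 genes. The rule used these 3 comparisons, so nothing is read from these counts.

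After siANKRA2 in DMSO 4 genes rose and 5 fell, with 24.3% and 24.5% of 26702 genes, and TCF7 alone was not called. In Nutlin-3a 5 rose and 3 fell, with 24.6% and 25.5%. After siRFXANK 3 rose and 4 fell in DMSO, with 20.9% and 21.2% of 25909 genes, and 4 rose and 3 fell in Nutlin-3a, with 19.8% and 19.6% of 25116. These 4 counts hold RNF43, whose values share the siControl samples with the rule. The response to Nutlin-3a differed between siRFXANK and siControl cells for 3 genes: higher for ZNRF3 (0.29 ± 0.09, adjusted p = 0.0076) and NKD1, with 11.6% of 25116 genes, and lower for AXIN2, with 9.64%. Genes with higher means pass more often: of 13103 genes whose mean reached 100, 77.0% and 78.1% were called after siANKRA2 and 69.5% and 62.7% after siRFXANK, in DMSO and Nutlin-3a, and of the 8 Wnt feedback genes with such a mean 8, 7, 7 and 6 were called, so that nothing is read from these counts. The median change of the 10 genes was -0.16 and 0.35 after siANKRA2 and 0.11 and 0.04 after siRFXANK, in DMSO and Nutlin-3a, with a median of -0.01 to 0.02 over all genes.

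**Figure D3:**
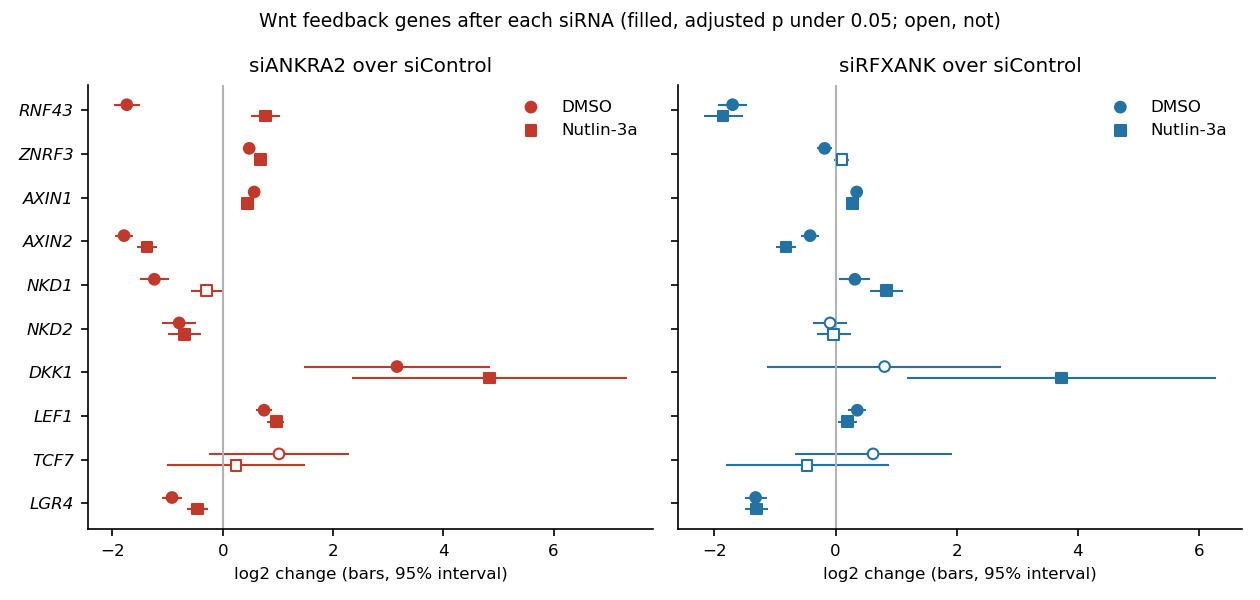
Log2 change of each gene after siANKRA2 (left) and siRFXANK (right) over siControl, in DMSO (circles) and Nutlin-3a (squares), with 95% intervals. Filled points passed an adjusted p of 0.05. RNF43 changes side between DMSO and Nutlin-3a after siANKRA2 (-1.74 and 0.78) but not after siRFXANK (-1.70 and -1.86).

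Levels of different genes were compared per kilobase of merged exons. In siControl cells in DMSO the order was AXIN1 (235 normalized counts per kb), LGR4 (220), AXIN2 (213), RNF43 (180), ZNRF3 (139), LEF1 (127), NKD1 (45.6) and NKD2 (40.2), with DKK1 (0.613) and TCF7 (0.470) far below. From AXIN1 to LEF1 each gene lies within the uncertainty of the recovered level of its neighbour in this order, as do NKD1 and NKD2, and DKK1 and TCF7, and only the steps from LEF1 to NKD1 and from NKD2 to DKK1 exceed it. In siRFXANK cells in Nutlin-3a RNF43 stood at 7.76 per kb, 8th of the 10, where ZNRF3 stood at 125.

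As a description, the genes closest to RNF43 over the 6 group log2 means, among genes with a mean of at least 100, were HMGB2, SPSB4, E2F8, EXO1 and CXCL14, at Euclidean distances of 2.07 to 2.48 log2 units. In siANKRA2 cells in Nutlin-3a, relative to siControl cells in DMSO, RNF43 was at -1.90 and EXO1 at -1.83, with SPSB4 at -2.32, E2F8 at -2.99, HMGB2 at -3.28 and CXCL14 at -3.95. In siANKRA2 cells in DMSO RNF43 was at -1.74, with CXCL14 at -2.02, HMGB2 at -1.87, SPSB4 at -1.52, E2F8 at -1.30 and EXO1 at -0.51. Each of these 5 genes thus stood lower in Nutlin-3a than in DMSO in siANKRA2 cells, by more than RNF43 did. These 5 do not share its lost fall, but that depends on the measure. By Pearson's r, which follows the shape of the pattern, the nearest gene was AARD (r = 0.994). AARD was at -1.17 in siControl cells in Nutlin-3a, and at -0.72 and -0.85 in siANKRA2 cells in DMSO and Nutlin-3a. Each of the 5 genes nearest by r had a smaller fall in siANKRA2 than in siControl cells. They were picked by that pattern, so nothing is read from it.

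Around these genes, 101 other genes of the pathway were listed by role, of which 86 or 87 were in a table. In Nutlin-3a in siControl cells 28 were higher and 32 lower, with a median change of -0.01, and in siANKRA2 cells 17 and 19. After siANKRA2 29 rose and 31 fell in DMSO and 29 and 30 in Nutlin-3a. After siRFXANK 19 rose and 34 fell in DMSO and 21 and 31 in Nutlin-3a, with medians of -0.09 and -0.12. These shares, 60.5% to 69.8% in the tables other than Nutlin-3a in siANKRA2 cells (41.9%), compare with 39.4% to 50.1% and 32.4% of all genes, and with 62.7% to 78.1% and 48.7% of genes with a mean of at least 100.

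On the side of the ligands, WLS, which carries Wnt proteins to the surface, rose after siANKRA2 (0.53 ± 0.04 in DMSO, 0.70 ± 0.04 in Nutlin-3a), and PORCN, the acyltransferase of Wnt proteins, fell after siRFXANK by 1.16 ± 0.10 and 1.09 ± 0.07. WNT3A had -0.20 ± 0.09 and -0.14 ± 0.08 after siANKRA2. The list of ligands and their release had 15 genes in the tables, WLS and PORCN among them. Of these, 7 rose and 5 fell after siANKRA2 in DMSO, and 5 rose and 5 fell after siRFXANK in DMSO. The shares are 80.0% and 66.7%, beside 48.8% and 42.1% of all genes. WLS and PORCN (0.41 ± 0.08) are both in the 7 that rose, and PORCN is in the 5 that fell after siRFXANK.

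On the R-spondin side, LGR5, a receptor like LGR4 with a deposited mean of 44.7, rose after siANKRA2 by 3.26 ± 0.24 in DMSO (adjusted p = 1.4e-40) and 5.14 ± 0.46 in Nutlin-3a (adjusted p = 1.4e-27), and after siRFXANK by 1.74 ± 0.25 (adjusted p = 6.3e-11) and 1.89 ± 0.51 (adjusted p = 0.00083), where LGR4 fell each time. In siControl cells in Nutlin-3a LGR5 was at 3.68 normalized counts (2.01 to 6.74), near the floor of 3, so the size of its changes in Nutlin-3a is unsure. RSPO4 fell after siRFXANK by 0.64 ± 0.07 and 0.71 ± 0.06 and had -0.05 ± 0.06 after siANKRA2 in DMSO. RSPO3, at a deposited mean of 24.5, fell after siANKRA2 in DMSO by 1.69 ± 0.56 (adjusted p = 0.0062) and rose after siRFXANK in DMSO by 1.63 ± 0.35 (adjusted p = 1.6e-05). Its recovered means in DMSO were low, at 11 in siControl, 3.41 in siANKRA2 and 34 in siRFXANK cells. The response to Nutlin-3a differed between siRFXANK and siControl cells for 0 of 5 genes of this list by the normal test of the difference, and for 1 at an unadjusted p under 0.05. Of all genes, 21.2% were called for this difference.

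Of 16 receptors and co-receptors, 6 rose and 5 fell after siANKRA2 in DMSO, and 1 rose and 7 fell after siRFXANK, both in DMSO. PTK7, a pseudokinase co-receptor, fell after siRFXANK by 0.67 ± 0.04 and 1.01 ± 0.04, and FZD6, a Frizzled receptor, rose after siANKRA2 by 0.42 ± 0.04 and 0.40 ± 0.04. LRP6 had 0.05 ± 0.08 and 0.15 ± 0.08 after siANKRA2. Of 11 inhibitors, 7 fell and 1 rose after siANKRA2 in DMSO, and 2 fell and 3 rose after siRFXANK, shares of 72.7% and 45.5% beside 48.8% and 42.1% of all genes. SFRP1, which binds Wnt ligands, fell after both, by 0.85 ± 0.06 and 0.79 ± 0.06 in DMSO, KREMEN2, a receptor of DKK proteins, fell after siANKRA2 by 0.81 ± 0.07, and DKK3 rose after siRFXANK by 0.67 ± 0.04.

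Inside the cell, 6 of 16 genes of the destruction complex and Dishevelled list rose and 3 fell after siANKRA2 in DMSO, and 4 rose and 7 fell after siRFXANK. These are shares of 56.2% and 68.8%, beside 48.8% and 42.1% of all genes. DVL3, a Dishevelled protein, fell after siRFXANK by 0.65 ± 0.04 in DMSO and 0.40 ± 0.04 in Nutlin-3a, USP34 fell there by 1.03 ± 0.12 and 0.40 ± 0.12, and CSNK1D had 0.04 ± 0.03 and -0.07 ± 0.03. Of 13 nuclear effectors, 5 rose and 6 fell after siANKRA2, and 1 rose and 7 fell after siRFXANK, in DMSO. These are shares of 84.6% and 61.5%, beside the same shares of all genes. CTNNB1, beta-catenin itself, had changes no larger than 0.26 ± 0.02 in the 6 tables. BCL9L rose after siANKRA2 in DMSO by 0.21 ± 0.07, and CHD8 fell there by 0.32 ± 0.08 and after siRFXANK in DMSO by 0.61 ± 0.08.

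Other common targets of beta-catenin moved in both directions. Of 10 in the tables, 3 rose and 3 fell after siANKRA2 in DMSO and 2 rose and 5 fell after siRFXANK. These are shares of 60.0% and 70.0%, beside 48.8% and 42.1% of all genes. CCND1, a driver of the cell cycle, fell after siANKRA2 by 0.66 ± 0.04 in DMSO and 1.63 ± 0.04 in Nutlin-3a. After siRFXANK CCND1 fell by 0.79 ± 0.04 and 0.78 ± 0.04. MYC rose after siANKRA2 by 1.28 ± 0.06 and 1.17 ± 0.06 but fell after siRFXANK by 1.05 ± 0.06 and 0.87 ± 0.06. SOX9 rose after siANKRA2 in DMSO by 0.50 ± 0.05 and fell in Nutlin-3a by 0.15 ± 0.05.

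**Figure D4:**
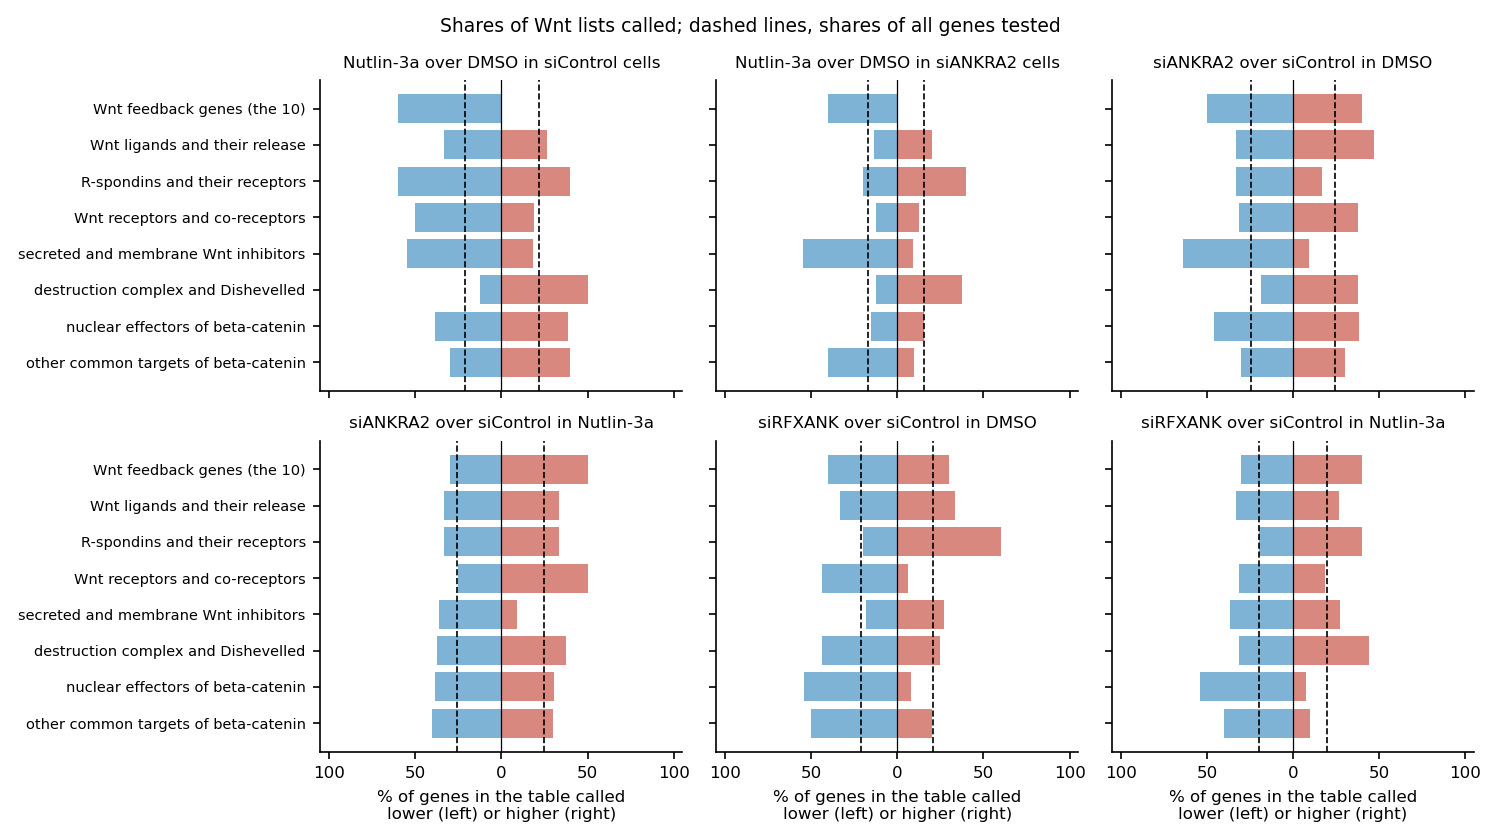
Percent of the genes of each Wnt list called lower (left, blue) or higher (right, red) at an adjusted p under 0.05 in each of the 6 tables, with dashed lines at the shares of all genes tested. Of the 10 Wnt feedback genes, 6 are lower and 0 higher in Nutlin-3a in siControl cells, a comparison used to choose them.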

How the data were processed

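The authors deposited 6 tables made with DESeq2 (1.20.0 per the labels' processing notes, on hg38, after bcl2fastq 2.20.0.422, Trimmomatic 0.39, cutadapt 2.10, FastQC 0.11.9, SAMtools 1.10, Picard and featureCounts 1.6.5). The aligner, the annotation and the use of strand are not given in the sources used here. Each deposited table holds a mean normalized count (a signal value, over the samples of the deposited fit, which for ANKRA2 cannot be these 18 alone), a log2 fold change with its standard error (log2 scale), a Wald score equal to their ratio, a p-value, and the p-value adjusted by Benjamini and Hochberg's method. The tables give no value or depth for a single sample, so no interval for counting error was made. These columns are the authors' own comparisons and were used as deposited.

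Knockdown tables were read as siRNA over siControl: the siANKRA2 direction follows from the closure of 4 tables (largest error 1.4e-14), and the siRFXANK direction was read from the table's RFXANK value. The difference of 2 Nutlin-3a responses was tested against the normal distribution with the summed variances, adjusted over all genes. Group means were recovered from log2 changes and standard errors under a negative binomial variance with 3 samples per group and means under 0.5 set to 0.5. The siRFXANK response to Nutlin-3a was derived from 3 tables. An adjusted p under 0.05 was the threshold. Python 3.11.15, numpy 2.4.6, scipy 1.17.1, pandas 2.3.3 and matplotlib 3.10.9 were used, and the calculations were tested on simulated data.

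The 10 genes and all gene lists were chosen with earlier results of these data known. Named besides them are the 3 genes of highest mean in each list, ANKRA2, RFXANK, MDM2 and CDKN1A, and genes overlapping a member. The 5 genes nearest to RNF43 by distance are also named, with AARD, the nearest by Pearson's r. Of 26702 gene IDs, 26659 are in GENCODE 29 (GRCh38). Upstream sequences are from RefSeq (GRCh38.p14).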

Additional observations from a re-analysis of the deposited data

Results flagged for a closer look

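The response to Nutlin-3a, as a log2 change, was another one in siANKRA2 than in siControl cells for 4 of the 10 genes: RNF43 by 2.51, NKD1 by 0.94, LGR4 by 0.47 and AXIN2 by 0.42, each a smaller fall. Of all genes, 24.0% were called for that comparison, and of genes with a mean of at least 100, 37.1%. The genes were chosen with that comparison known, so these are values without a test. MDM2 and CDKN1A rose less in the same cells (differences of -1.19 ± 0.07 and -1.85 ± 0.06). CDKN1A started from a higher level in DMSO (23233 against 5633 normalized counts) and also ended higher in Nutlin-3a (62129 against 54185). In siRFXANK cells CDKN1A also rose less than in siControl cells, from 5411 to 29485, and the RNF43 response there was derived as -2.84 ± 0.16. The part of MDM2 and CDKN1A in the result was not tested.

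In siRFXANK cells the response differed, by the normal test of the difference adjusted over 25116 genes, for ZNRF3 by 0.29 (adjusted p = 0.0076), for NKD1 by 0.53 (adjusted p = 0.030) and for AXIN2 by -0.40 (adjusted p = 0.0040). They make up 30.0% of the set, beside 21.2% of all genes. Of the 8 genes of the set with a mean of at least 100 they make up 37.5%. Of all genes with such a mean, 37.7% were called, so nothing is read from this count. For AXIN2 the differences had opposite signs after the 2 siRNAs. Here a batch and the siRNA cannot be told apart.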

How the results depend on the processing

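At an adjusted p under 0.05 the 10 genes gave 6 calls in Nutlin-3a in siControl cells, 4 in siANKRA2 cells, 9 and 8 after siANKRA2 in DMSO and Nutlin-3a, 7 and 7 after siRFXANK, and 4 and 3 for the response differences of siANKRA2 and siRFXANK. With a log2 change of at least 1 also required these became 3, 0, 4, 2, 2, 3, 1 and 0, in the same order, since most of the calls are smaller. The other Wnt genes went from 60 to 17, 36 to 3, 60 to 20, 59 to 20, 53 to 14, 52 to 11, 36 to 9 and 38 to 5. A threshold of 0.01 left 2 of the 4 in siANKRA2 cells, without NKD1 and LEF1. It also lost NKD1 after siRFXANK in DMSO, and DKK1 and LEF1 after siRFXANK in Nutlin-3a. The response difference of NKD1 in siRFXANK cells was lost as well. The other settings (adjustment limited to genes whose mean reached 10 or 100, centring on the median, which moved by at most 0.019, and the siANKRA2 response taken from the knockdown tables) kept each count within 1.5 times and no direction of a called gene reversed. Of single calls, centring lost LEF1 in Nutlin-3a in siANKRA2 cells and after siRFXANK in Nutlin-3a and gained ZNRF3 for the siANKRA2 response (0.21), and a minimum mean of 100 gained ZNRF3 there too and NKD1 after siANKRA2 in Nutlin-3a (-0.30). Setting the level by the deposited mean multiplies a gene's group means by 0.634 (TCF7) to 1.46 (NKD2) and leaves changes between groups as they are. With Pearson's r in place of distance, the 5 genes most like RNF43 shared 0 with those named. Depth limits DKK1 and TCF7, whose means are under 10. No paired analysis was possible because the tables give no value per sample; for the same reason no replicate could be left out.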
